A study of Mus musculus with 4 samples.

Results

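The forebrain and eye field factors described here are 8 transcription factors of the anterior neural plate and the brain and eyes that form from it, *Otx1*, *Otx2*, *Emx1*, *Emx2*, *Hesx1*, *Rax*, *Nr2e1* and *Fezf2*. They were chosen by gene name, and 8 of the 24729 named genes on the arrays are members. They are read by 12 probes, 3 members having more than 1 probe. The study compared gene expression in whole embryos of WT and *Dyrk2*-/- mice during early organogenesis, to find genes behind the malformations of the mutant. RNA was hybridized to one-colour Agilent arrays, on which the brightness of a Cy3-labelled spot measures 1 transcript. There were 4 groups with 1 array each, all on 1 slide, WT and *Dyrk2*-/- at the embryonic stages E8.5 and E10.5. All 4 groups were labelled C57BL/6, untreated and whole embryo. The WT groups carried no engineered allele. The *Dyrk2*-/- groups were homozygous for small *Dyrk2* deletions made with the CRISPR/Cas9 nickase, several of which were bred in the study, and neither the allele nor the number of embryos behind each array was given in the sources used here.

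The anterior neural plate is divided early by a small set of transcription factors. Otx proteins hold the territory of the forebrain and midbrain, Hesx1 and Rax mark the most anterior plate and the eye field within it, and Emx proteins, Nr2e1 and Fezf2 act as the telencephalon grows out and its progenitors are patterned. The genes are used in a fixed order in time, so that a comparison of levels in whole embryos depends on the stage each embryo had reached as well as on its genotype.

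Levels are given as log2 of the intensity relative to the 75th percentile of the same array. The error given after a level is the one that the scanner software models for the spot, and it does not cover the difference between embryos. With 1 array per group the genotypes were compared without a replicate check at each stage, and no p-value was computed there. A gene was called changed at 1.5-fold or more. Where 1 array of a pair left a probe too dim to be well above background, the fold is a bound. Such a bound holds only for the background subtraction used here. With another correction (normexp) some members fell below theirs, and no such value is given here for other genes. Each array entered 2 of the 4 comparisons, which therefore share arrays and are given side by side. Levels of different probes are not comparable with each other.

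*Dyrk2*, the targeted gene, is read by a pair of probes. Its brightest probe (chr10:118296479-118296538 of mm9) had E8.5 levels of 0.06 (WT) and 0.76 (*Dyrk2*-/-), then −0.31 and 0.34 at E10.5. On the arrays labelled *Dyrk2*-/- it was thus higher by 1.62-fold and 1.57-fold, and the other *Dyrk2* probe was 1.02-fold and 1.21-fold higher there. A small deletion need not lower the transcript, and the position of these probes relative to the deletions was not given in the sources used here, so that *Dyrk2* did not check the labels. Every direction between genotypes below rests on the labels.

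The E10.5 arrays also differed in sex-linked genes. *Xist*, transcribed from the inactive X chromosome, stood clear of the background on a single array, that labelled *Dyrk2*-/- at E10.5 (level −0.37). The Y-linked gene *Eif2s3y* had levels of 1.45, 1.14 and 0.66 on the E8.5 WT, E8.5 *Dyrk2*-/- and E10.5 WT arrays and was dim on the E10.5 *Dyrk2*-/- array. Genotype and sex cannot be told apart at E10.5, and neither can stage and sex between the *Dyrk2*-/- arrays. All 8 members are autosomal.

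*Otx2*, the homeobox gene needed for the forebrain and midbrain to form, was well above background on every array. Its brightest probe (chr14:49277855-49277914 of mm9) had levels of 3.38 ± 0.14 and 3.15 ± 0.14 on the WT and *Dyrk2*-/- arrays at E8.5, then 2.88 ± 0.14 and 2.93 ± 0.14 at E10.5. The E8.5 arrays were the higher ones, yet no step between neighbours in this order exceeded 2 errors of the difference. Between the WT arrays *Otx2* was 1.41-fold lower at E10.5, a log2 difference of −0.5 ± 0.2 or 2.4 errors. Between the *Dyrk2*-/- arrays it was 1.16-fold lower. Between genotypes *Otx2* was 1.17-fold lower at E8.5 and 1.04-fold higher at E10.5 on the array labelled *Dyrk2*-/-.

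*Otx2* has a further pair of probes, which lie at other positions of its locus. The probe chr14:49281026-49281085 had levels of −0.53 and −0.61 at E8.5, then −1.16 and −1.02 at E10.5 (WT and then *Dyrk2*-/-). The probe chr14:49284952-49285011 had levels of −2.51 and −2.42 at E8.5, then −3.15 and −2.30 at E10.5. At this last probe the E10.5 WT array stood below the other 3, and the E10.5 array labelled *Dyrk2*-/- had a 1.80-fold higher level, a log2 difference of 0.85 ± 0.24 that the other *Otx2* probes did not show. Between the WT arrays each probe of this pair was 1.55-fold lower at E10.5 (log2 differences of −0.63 ± 0.21 and −0.63 ± 0.24). Between the *Dyrk2*-/- arrays the first was 1.33-fold lower and the last 1.09-fold higher.

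*Otx1*, the related gene of the dorsal forebrain and later the cortex, was near the limit of the arrays. Its single probe (chr11:21898391-21898450 of mm9) had levels of −5.24 ± 0.43, −5.28 ± 0.52 and −5.30 ± 0.48 on the E8.5 WT, E8.5 *Dyrk2*-/- and E10.5 WT arrays, where it was dim. On the E10.5 *Dyrk2*-/- array it was well above background, with a level of −4.37 ± 0.27. *Otx1* was thus at least 1.27-fold higher there than on the E10.5 WT array. The measured difference of 0.93 lay within 2 errors, with an error of 0.55.

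*Hesx1*, a homeobox repressor of the anterior neural plate and later of the pituitary primordium, gave E8.5 levels of 0.18 ± 0.14 on the WT array and −0.31 ± 0.15 on the other. At E10.5 its levels were −3.40 ± 0.20 (WT) and −2.18 ± 0.16 (*Dyrk2*-/-) (chr14:27815304-27815363 of mm9). All 4 arrays were separated by more than 2 errors, with the E8.5 WT array highest and the E10.5 WT array lowest. On the arrays labelled *Dyrk2*-/-, *Hesx1* was 1.40-fold lower at E8.5 and 2.33-fold higher at E10.5, and the difference between these opposite directions was not tested. With stage it was 12-fold lower in WT and 3.67-fold lower in *Dyrk2*-/-.

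*Rax*, the homeobox gene that marks the eye field and then the retina and hypothalamus, had levels of −0.05 ± 0.14 and −0.08 ± 0.14 at E8.5, then −1.21 ± 0.15 and −1.08 ± 0.15 at E10.5 (WT and then *Dyrk2*-/-). The stages did not overlap, and at each stage the genotypes differed by less than 1 error of the difference. *Rax* was 2.23-fold lower at E10.5 than at E8.5 in WT and 2.0-fold lower in *Dyrk2*-/-. A further *Rax* probe was dim on all 4 arrays.

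*Emx2*, a homeobox gene of the dorsal telencephalon that is also used in the urogenital system, had levels of 0.98 ± 0.14 and 0.96 ± 0.14 at E8.5, then 2.70 ± 0.14 and 2.53 ± 0.14 at E10.5 (chr19:59539650-59539709 of mm9). Both E10.5 arrays were above both E8.5 arrays, and within a stage the genotypes lay within 1 error of each other. The gene was 3.31-fold higher at E10.5 in WT and 2.96-fold higher in *Dyrk2*-/-.

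*Emx1*, which marks the cortical part of the dorsal telencephalon, was too dim on the E8.5 WT array to be well above background (−4.80 ± 0.35). It had levels of −4.32 ± 0.31 on the E8.5 *Dyrk2*-/- array, −2.68 ± 0.16 on the E10.5 WT array and −2.49 ± 0.16 on the E10.5 *Dyrk2*-/- array (chr6:85154062-85154121 of mm9). Here too the E10.5 arrays were the high ones, and the genotypes overlapped within 2 errors at both stages. *Emx1* was at least 4.35-fold higher at E10.5 in WT and 3.55-fold higher in *Dyrk2*-/-.

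*Nr2e1*, the orphan nuclear receptor Tlx of neural progenitors in forebrain and retina, covered the widest range of the 8 members. Its brightest probe (chr10:42281827-42281886 of mm9) was too dim on the E8.5 WT array to be well above background (−5.54 ± 0.58) and had levels of −2.95 ± 0.19 on the E8.5 *Dyrk2*-/- array, 1.09 ± 0.14 on the E10.5 WT array and 0.79 ± 0.14 on the E10.5 *Dyrk2*-/- array. The E8.5 WT array was thus far below the other 3. *Nr2e1* was at least 3.66-fold higher on the E8.5 array labelled *Dyrk2*-/- than on the WT array, and 1.23-fold lower at E10.5, where the genotypes lay within 2 errors. With stage it was at least 59.9-fold higher in WT and 13.3-fold higher in *Dyrk2*-/-.

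The other *Nr2e1* probe (chr10:42281777-42281804 for the part of it that the annotation places) was not well above background on either E8.5 array, with levels of −5.98 ± 0.79 (WT) and −4.53 ± 0.39 (*Dyrk2*-/-). It had levels of −0.39 and −0.68 at E10.5. The E8.5 difference of *Nr2e1* between genotypes therefore rests on 1 probe on 1 array, whereas both probes were high at E10.5.

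*Fezf2*, a zinc finger factor of forebrain patterning and of deep-layer cortical neurons, had levels of −3.76 ± 0.20 and −3.51 ± 0.21 at E8.5, then −2.09 ± 0.15 and −2.44 ± 0.16 at E10.5 (chr14:13175057-13175116 of mm9). The E10.5 arrays were higher and the genotypes at each stage were within 2 errors. The gene was 1.19-fold higher on the E8.5 array labelled *Dyrk2*-/- and 1.28-fold lower at E10.5. With stage it was 3.19-fold higher in WT and 2.11-fold higher in *Dyrk2*-/-.

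**Figure D1:**
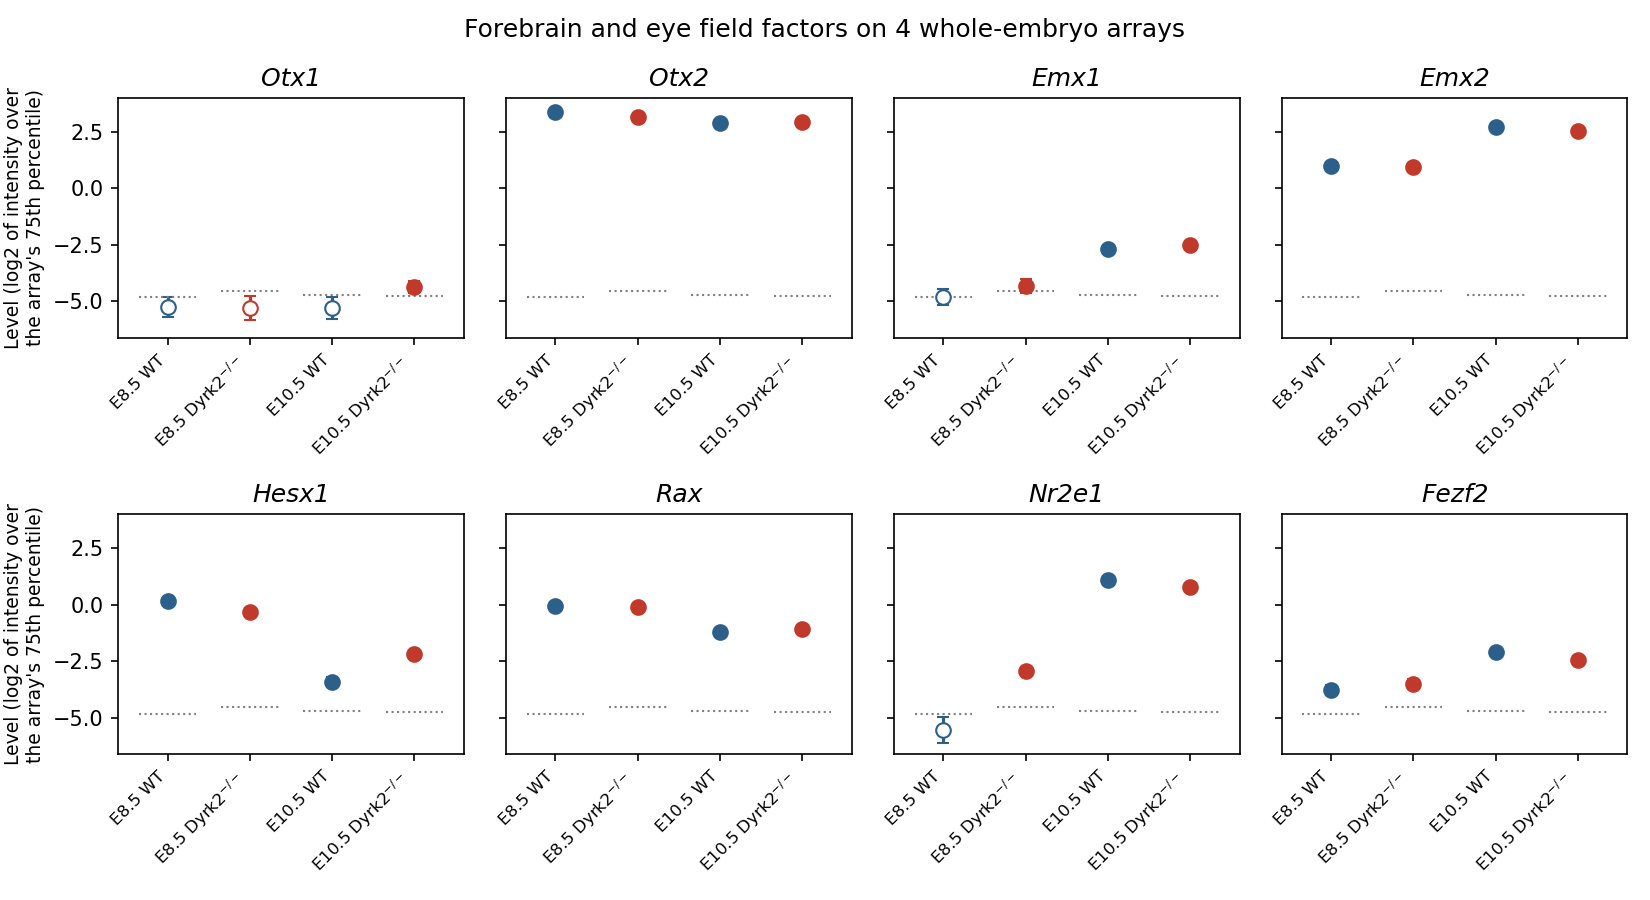
Level of each member's brightest probe on each array (log2 of the intensity over the array's 75th percentile), blue for WT and red for arrays labelled *Dyrk2*-/-, with the scanner software's modelled error as bars where they exceed the symbol. Open symbols were not well above background and dotted lines mark the lowest level that was; *Nr2e1* spans −5.54 to 1.09, and *Hesx1* falls from 0.18 to −3.40 between the WT arrays.

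Some short stretches show what the probes read, the first 30 of 60 bases of each, as the array annotation gives them. They belong to members whose probes differed in response or whose levels differed between genotypes. The array annotation names a transcript for each of these probes. Whether the bases lie in an exon, an intron or a UTR was not given in the sources used here.
*Nr2e1*, brightest probe: ggcttagcataggatgagtcaaacttctct
*Nr2e1*, other probe: tccagtacccacttttccaagatggggcag
*Hesx1*: catgttggcttctcttccagttgtatagta
*Otx2*, brightest probe: tttcagggctgtgtggattgtgcgactgat
*Otx2*, probe that differed between genotypes at E10.5: gggacgtgtgcccctcggattatctcgtta
The 60 bases of this last *Otx2* probe matched, without a mismatch and on the same strand, bases −227 to −168 before 1 of the 4 *Otx2* starts in the RefSeq promoter sequences of GRCm38.p6. Other *Otx2* starts lie further upstream, so that the match alone does not place the probe outside an *Otx2* transcript.

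At E8.5, 7 members could be compared between genotypes, *Otx1* being dim on both arrays. On the array labelled *Dyrk2*-/-, 1 of the 7 was higher, *Nr2e1*, against 4.23% of 15789 genes, and 0 were lower, against 5.43%. The median log2 ratio was −0.01 over the 7 members and −0.03 over all genes. At E10.5, 2 of 8 members were higher, *Otx1* and *Hesx1*, against 2.76% of 16122 genes, and 0 were lower, against 4.01%. The median was 0.09 over the members and −0.02 over all genes. *Otx1* was counted from its measured level, and its bound was below 1.5-fold. With normexp background correction the log2 ratios at E10.5 were 0.55 for *Hesx1* and 0.22 for *Otx1*, both below 1.5-fold. That of *Otx1* also lay below its bound of 1.27-fold.

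The scaling between arrays shifted all genes at E8.5. Scaling by spike-in controls moved the median log2 ratio of all genes to −0.58, and no scaling moved it to −0.29, so that 97.7% and 87.3% of changed genes were then lower, against 56.2% here. *Hesx1* had a log2 ratio of −1.03 and *Otx2* of −0.78 with spike-in scaling, while *Nr2e1* had one of 2.04. With normexp background correction the log2 ratio of *Nr2e1* was 0.79, against 2.59 here, a value below the bound of 3.66-fold. At E10.5 the same settings gave medians of 0.15 and −0.15, and 34.3% and 74.7% of changed genes were lower, against 59.2% here.

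Over both stages, limma found 0 of 7 members changed between genotypes at an adjusted p under 0.05, against 0.0186% of 32289 probes, with 1 of 7 members at an unadjusted p under 0.05, against 1592 of the 32289 probes. That member was *Nr2e1*, whose log2 difference was 1.15 ± 0.51 (SE, adjusted p = 1.0, with the dim E8.5 WT level entered as read), higher on the array labelled *Dyrk2*-/- at 1 of 2 stages. *Hesx1* had a log2 difference of 0.37 ± 0.33 (adjusted p = 1.0), higher at 1 of 2 stages. The fit has 1 residual degree of freedom, and these values do not show that the genotypes were alike.

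From E8.5 to E10.5, 4 of 7 members were 1.5-fold or more higher in WT, against 19.3% of 16455 genes, and 2 of 7 were lower, against 18.3%. In *Dyrk2*-/-, 5 of 8 were higher, against 17.1% of 16210 genes, and 2 of 8 were lower, against 14.3%. *Otx1* is among the 5 from its measured level, with a bound of 1.12-fold, and its log2 ratio was −0.07 with normexp background correction. In the limma fit 6 of 7 members changed, against 35.3% of 32289 probes, 4 of them rising, against 15.7%, and 2 falling, against 19.6%. The fit needs a probe to be well above background on 2 arrays, which *Nr2e1* and *Emx1* met through the stage at which they were high, and *Otx1* did not meet. In WT these genes were likewise compared through the E10.5 array alone. The counts of 4 rising rest in part on this and are a description only. Where all 4 arrays had to be well above background, 2 of 5 members rose and 2 of 5 fell, against 3999 and 5927 of 28622 probes.

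The 4 that rose were *Nr2e1*, *Emx1*, *Emx2* and *Fezf2*, each higher at E10.5 in both genotypes. *Emx2* had a log2 difference of 1.65 ± 0.13 (SE, limma adjusted p = 2.09e-05) and *Fezf2* one of 1.37 ± 0.25 (limma adjusted p = 0.00287). *Nr2e1* and *Emx1* were dim on the E8.5 WT array, so that their size is given by the measured folds in *Dyrk2*-/-, 13.3-fold and 3.55-fold, and the bounds in WT. The other *Nr2e1* probe, dim on both E8.5 arrays, was at least 21.5-fold higher in WT and at least 14.4-fold higher in *Dyrk2*-/-. With normexp background correction the log2 ratios in WT were 3.57 for *Nr2e1*, 0.62 for *Emx1* and 0.71 for *Fezf2*, and those of *Nr2e1* and *Emx1* lay below their bounds of 59.9-fold and 4.35-fold. In *Dyrk2*-/- they were 2.53, 0.48 and 0.37, so that *Emx1* and *Fezf2* were then under 1.5-fold. The limma difference of *Fezf2* with that correction was 0.54 ± 0.12 (adjusted p = 0.00989).

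The 2 that fell were *Hesx1* and *Rax*. *Hesx1* fell by 2.73 ± 0.33 on the log2 scale (limma adjusted p = 0.000278) and *Rax* by 1.08 ± 0.15 (limma adjusted p = 0.000596), each in both genotypes. With normexp background correction *Hesx1* had −1.75 ± 0.20 (limma adjusted p = 0.000294). *Otx2* had a log2 difference of −0.36 ± 0.13 at its brightest probe (limma adjusted p = 0.053), of −0.52 ± 0.15 at the next (adjusted p = 0.0268) and of −0.25 ± 0.24 at the probe that matches the promoter (adjusted p = 0.448). With spike-in scaling *Rax* no longer passed the threshold (−0.79 ± 0.55, adjusted p = 0.656), and nor did it with the mean over its probes (−0.60 ± 0.25, adjusted p = 0.09). That mean takes in the *Rax* probe that was dim on every array, which dampens any change read by the brightest probe. The log2 ratio of *Rax* between the *Dyrk2*-/- arrays was −0.36 with spike-in scaling, under 1.5-fold. Between the WT arrays it was −0.55 with the mean over its probes, also under 1.5-fold. Spike-in scaling moved the all-gene median to −0.16 in WT and 0.57 in *Dyrk2*-/-, and no scaling moved it to 0.24 in *Dyrk2*-/-. Of changed genes 45.6% were lower in *Dyrk2*-/-, against 9.45% with spike-in scaling and 22.2% with none, and 48.7% in WT, against 54.9% with spike-in scaling and 33.7% with none. In whole embryos, fewer cells of a type and less RNA per cell cannot be told apart, and neither can a smaller share of the embryo taken up by the head.

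Other factors of the same territories were read alongside, 28 genes of which 28 were well above background on at least 1 array and 19 on all 4. Their summed signal, in units of the 75th percentile, was 39.1 and 35.3 at E8.5, then 50.6 and 44.1 at E10.5 (WT and then *Dyrk2*-/-). With stage, 16 of 28 rose and 4 of 28 fell in the limma fit. Among those that rose were *Gsx1*, *Dlx1* and *Gsx2*, homeobox genes of the ventral telencephalon that were dim on both E8.5 arrays and at least 22.0-fold, 15.4-fold and 3.79-fold higher at E10.5 in WT (at least 12.2-fold, 13.2-fold and 2.47-fold in *Dyrk2*-/-). The 3 largest falls were *Sp8*, a zinc finger factor of the anterior ridge, at −1.49 ± 0.13, the eye field gene *Six3* at −1.05 ± 0.16 and *Fezf1* at −0.74 ± 0.16 (limma adjusted p = 4.95e-05, 0.00106 and 0.007).

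**Figure D2:**
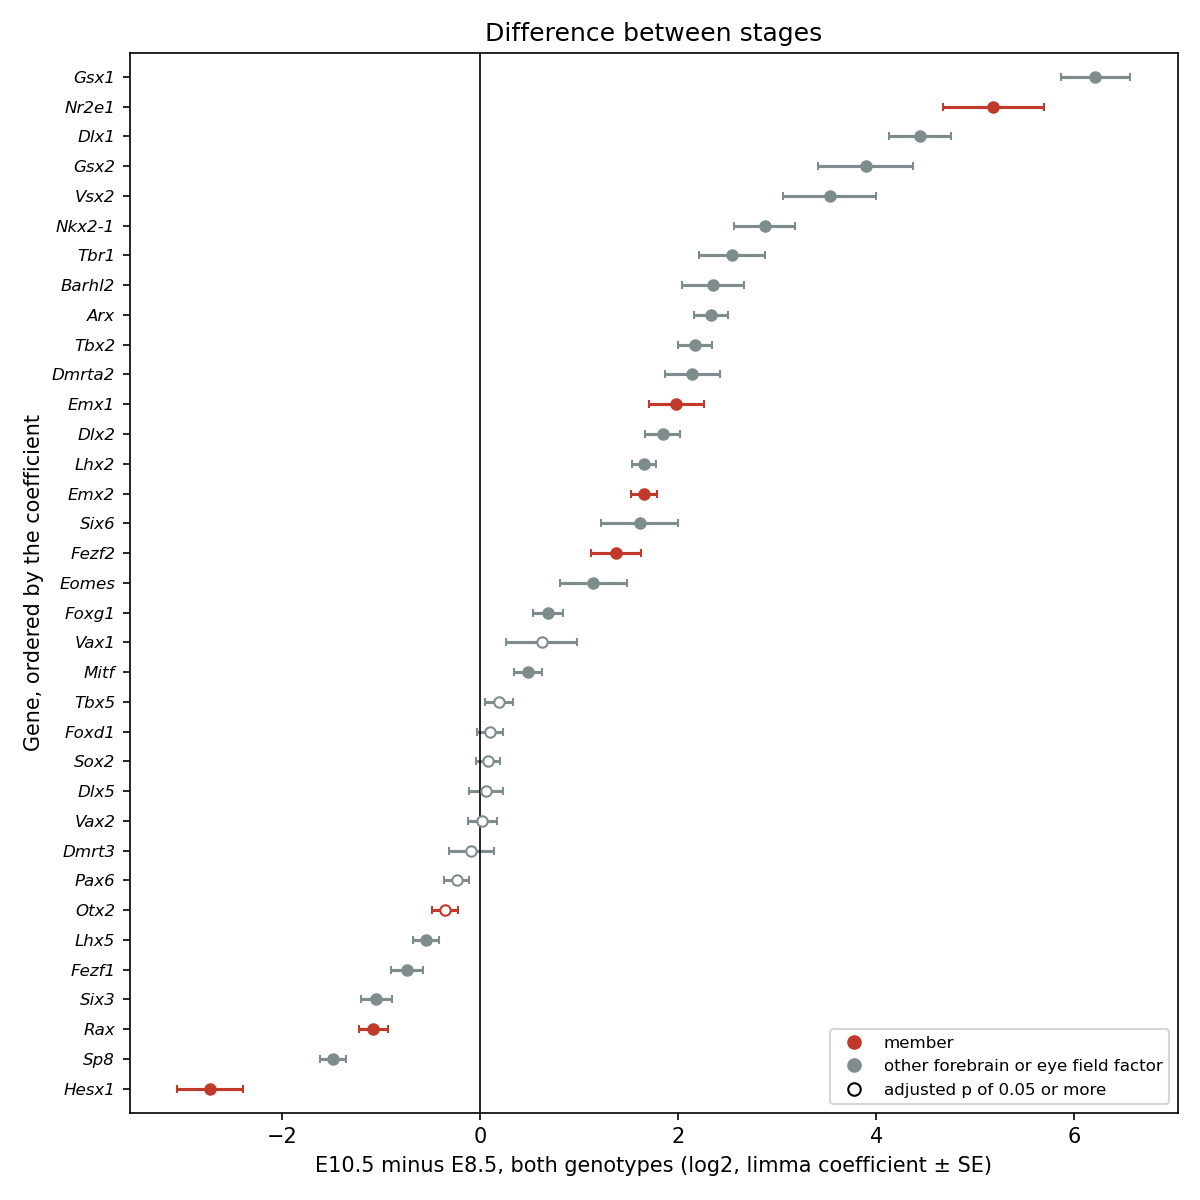
Difference between E10.5 and E8.5 over both genotypes (limma coefficient on the log2 scale, bars are the SE) for the members in red and the other forebrain and eye field factors in grey, ordered by size, with open symbols at an adjusted p of 0.05 or more. Genes dim on an E8.5 array, *Nr2e1*, *Emx1* and *Gsx1* among them, are drawn with that dim level; *Emx2* lies at 1.65 and *Hesx1* at −2.73 at the bottom.

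Between genotypes at E8.5, 21 of these other factors could be compared, of which 3 were higher on the array labelled *Dyrk2*-/- and 1 was lower (median log2 ratio −0.02). *Dmrta2*, a zinc finger factor of the cortical hem region, had levels of −3.12 (WT) and −1.91 (*Dyrk2*-/-) and was 2.32-fold higher. *Dlx2*, of the ventral telencephalon and branchial arches, had −1.01 and −0.21 and was 1.75-fold higher. *Six6*, of the retina and pituitary, was not well above background in WT and at least 2.33-fold higher, and *Vax1*, of the optic stalk, was at least 1.34-fold lower, counted from its measured level since the bound is under 1.5-fold. With spike-in scaling, 2 were higher and 10 lower. No spot error and no value with normexp background correction is given here for genes other than members. With that correction the count of changed genes at E8.5 was 419, against 1525. Like *Nr2e1*, the genes *Dmrta2* and *Dlx2* were also higher at E10.5 than at E8.5 (log2 differences of 2.14 ± 0.28 and 1.84 ± 0.18, limma adjusted p = 0.000482 and 8.61e-05), as was *Six6* in *Dyrk2*-/- (1.73-fold), comparisons that use the same E8.5 arrays.

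At E10.5, 1 of 28 other factors was higher on the array labelled *Dyrk2*-/- and 3 were lower, with a median of −0.27. *Nkx2-1*, a homeobox gene of the ventral forebrain that also marks thyroid and lung, had levels of −1.63 (WT) and −2.82 (*Dyrk2*-/-) and was 2.28-fold lower. *Tbr1* and *Eomes*, T-box genes of early cortical neurons and their progenitors, were 1.85-fold and 1.75-fold lower. *Dlx5* was 1.5-fold higher. These counts were the same with spike-in scaling. The other factors have no value with normexp background correction here, with which the count of changed genes at E10.5 was 253, against 1092. *Hesx1* and *Otx1* were higher on the array labelled *Dyrk2*-/-, *Otx1* from its measured level and within 2 errors. The other members differed by less than 1.5-fold. *Emx1*, *Rax* and *Otx2* were higher (log2 ratios of 0.19, 0.12 and 0.05), and *Nr2e1*, *Fezf2* and *Emx2* were lower (−0.30, −0.35 and −0.18).

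**Figure D3:**
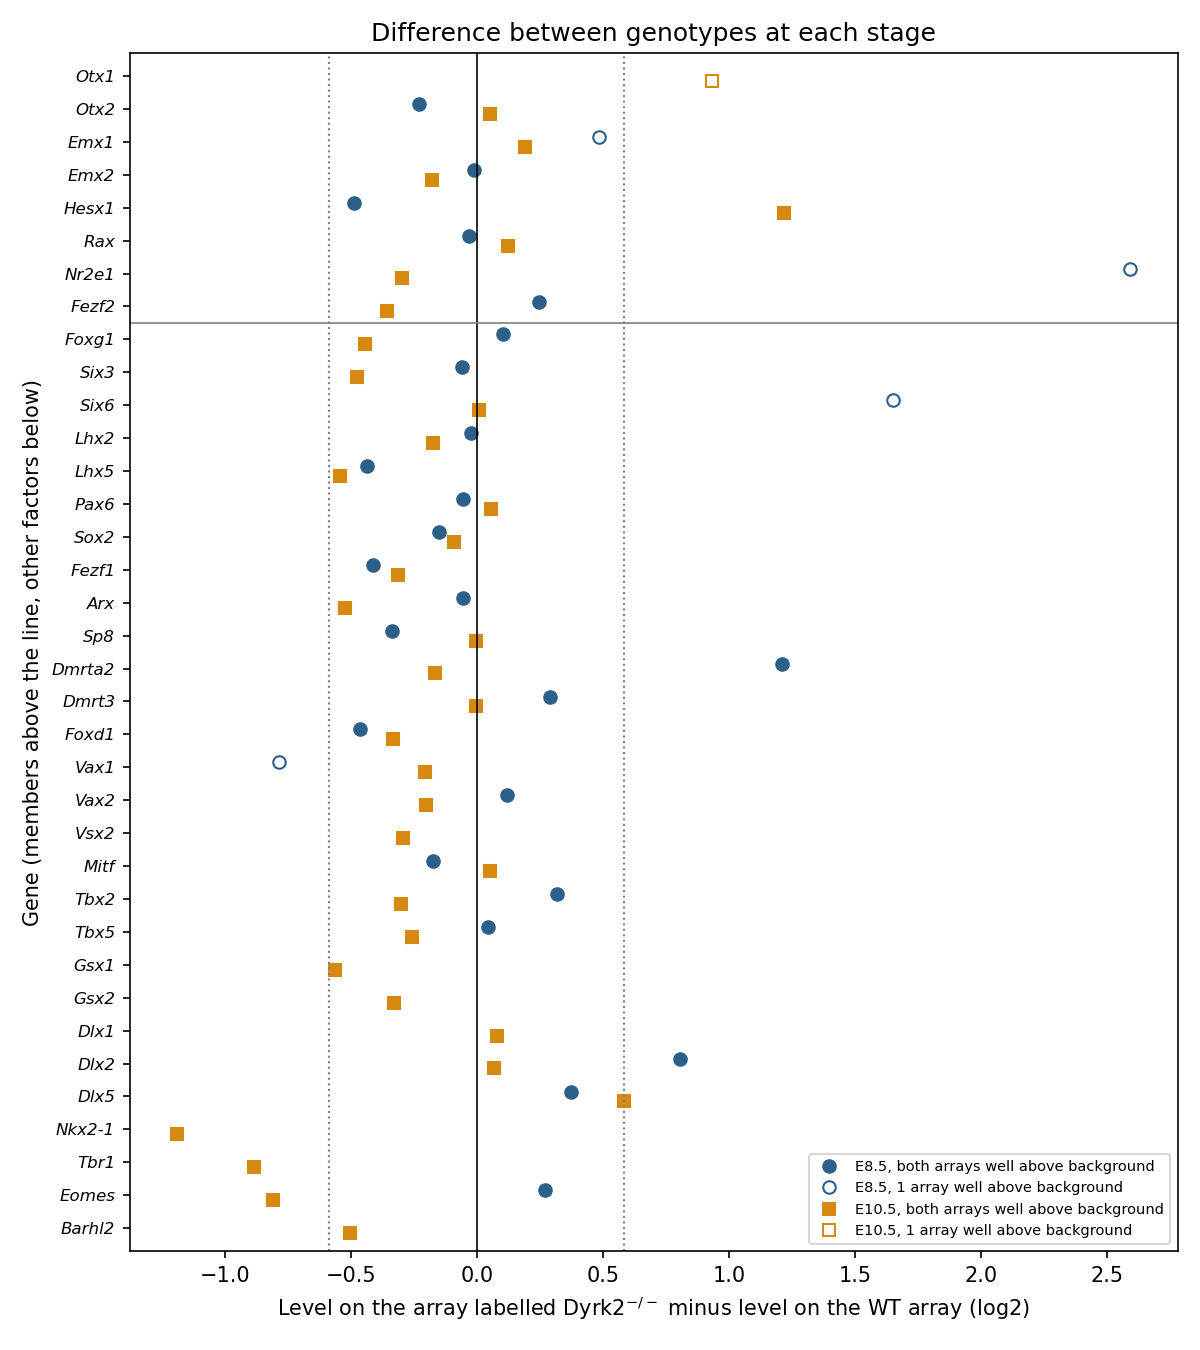
Level on the array labelled *Dyrk2*-/- minus level on the WT array (log2) for the members, above the line, and the other forebrain and eye field factors, below it. Circles are E8.5, squares E10.5, open symbols pairs with 1 array well above background, and dotted lines mark 1.5-fold; *Nr2e1* stands at 2.59 at E8.5 and *Hesx1* at 1.22 at E10.5.

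Signals of the anterior neural ridge and antagonists from neighbouring tissue act on the members. Of 15 such genes, 14 were compared between genotypes, *Chrd* being dim on every array. Of these, the E8.5 array labelled *Dyrk2*-/- had 2 higher and 2 lower, and with spike-in scaling 2 higher and 6 lower. *Aldh1a3*, a retinoic acid synthesis enzyme of the eye and nose region, had levels of −4.00 (WT) and −2.20 (*Dyrk2*-/-) and was 3.47-fold higher, and *Cer1*, an antagonist of the anterior endoderm and mesoderm, was 2.34-fold higher. *Hhex*, of anterior endoderm, was 1.82-fold lower, and the Wnt antagonist *Dkk1* was 1.54-fold lower. At E10.5, 0 of 14 were higher or lower. With stage 2 of 14 rose and 9 fell, among them *Fgf8*, the growth factor of the ridge, with levels of 2.76 and 2.63 at E8.5, then 0.91 and 0.92 at E10.5 (−1.78 ± 0.13, limma adjusted p = 1.3e-05). *Fgf17* and *Cer1* fell too (−1.97 ± 0.17 and −1.89 ± 0.35, limma adjusted p = 3.9e-05 and 0.00323), while *Aldh1a3* and *Wnt8b*, a Wnt of the dorsal forebrain, rose (3.20 ± 0.30 and 1.38 ± 0.17, limma adjusted p = 6.89e-05 and 0.000347).

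Factors of the midbrain and hindbrain, the territory behind the members, did not differ between genotypes by 1.5-fold in any of 11 genes compared at either stage, although 5 were lower at E8.5 with spike-in scaling. *En1* was dim on every array. With stage 0 of 11 rose and 8 fell, led by the hindbrain genes *Egr2* (−5.32 ± 0.16), *Hoxb1* (−2.80 ± 0.14) and the midbrain-hindbrain gene *Pax8* (−2.25 ± 0.21; limma adjusted p = 2.76e-07, 1.7e-06 and 5.98e-05).

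Markers of other tissues moved with some of these comparisons. Neural tissue genes had a summed signal of 78.7 and 76.5 at E8.5, then 160.4 and 122.8 at E10.5 (WT and then *Dyrk2*-/-), with the *Cdh2* or *Stmn2* probe the brightest. At E8.5, 1 of 11 was lower on the array labelled *Dyrk2*-/-, the radial glia gene *Fabp7* (1.62-fold), and 5 of 11 with spike-in scaling. At E10.5, 3 of 12 were lower, *Map2*, *Stmn2* and *Dcx* of young neurons (1.58-fold, 1.53-fold and 1.51-fold), 0 were higher and the median was −0.43. At that stage 0 of 12 were lower with spike-in scaling. With stage 8 of 12 rose and 0 fell, among them *Elavl3* and *Fabp7* (5.20 ± 0.16 and 3.77 ± 0.12, limma adjusted p = 2.76e-07 and 3.43e-07). *Dcx*, dim on both E8.5 arrays, was at least 69.6-fold higher in WT and at least 37.6-fold higher in *Dyrk2*-/-. The part of neural tissue content in the members' values was not tested.

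Erythrocyte genes stood furthest apart between genotypes. On the E8.5 array labelled *Dyrk2*-/- all 10 of 10 were higher (median log2 ratio 4.55), and their summed signal was 15.5 in WT and 326.0 in *Dyrk2*-/-, with the *Hbb-bh1* probe the brightest. The embryonic globin *Hbb-y* had levels of 0.15 and 6.15, a 63.8-fold difference, and *Slc4a1*, *Hba-x* and *Hba-a1* were 34.1-fold, 33.7-fold and 30.7-fold higher. *Klf1* was not well above background in WT and at least 3.99-fold higher. At E10.5, 7 of 10 were higher, among them *Klf1*, *Gata1* and *Alas2* by 2.50-fold, 2.35-fold and 2.31-fold, and the sums were 1102.2 and 1302.6, with the *Hbb-y* probe the brightest. All 10 rose with stage, *Hbb-y*, *Slc4a1* and *Alas2* by the most (5.31 ± 1.0, 5.24 ± 0.67 and 4.85 ± 0.49, limma adjusted p = 0.00342, 0.000426 and 0.000105). Between genotypes limma found 1 of 10 changed, the erythropoietin receptor gene *Epor*, at 1.26 ± 0.14 (limma adjusted p = 0.0434, higher on the arrays labelled *Dyrk2*-/- at both stages). The counts between genotypes, 10 of 10 and 7 of 10, were the same with spike-in scaling, and the part of erythrocyte or stage differences in the level of *Nr2e1* at E8.5 was not tested.

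Yolk sac endoderm genes were lower in 6 of 8 at E8.5, *Amn*, *Cubn*, *Apoa4* and *Apob* by 1.75-fold, 1.72-fold, 1.67-fold and 1.55-fold, with sums of 51.0 and 33.1 and the *Rbp4* probe the brightest, and in 8 of 8 with spike-in scaling. At E10.5, 0 of 7 differed, and the sums were 20.8 and 17.1, with the *Afp* probe the brightest. With stage 1 of 8 rose, *Afp* (0.72 ± 0.13, limma adjusted p = 0.00235), and 7 fell, among them *Cubn* (−4.68 ± 0.21, limma adjusted p = 1.15e-06). *Apoa4*, dim on both E10.5 arrays, was at least 16.1-fold lower in WT and at least 9.98-fold lower in *Dyrk2*-/-, and *Amn*, dim on the E10.5 *Dyrk2*-/- array, 40.8-fold and at least 32.2-fold lower. Of 7 decidua and trophoblast genes on the arrays, 4 were compared at E8.5 and 2 were higher, *Prl8a2* (2.72-fold) and *Prl3d1* (at least 6.62-fold), with sums of 0.985 and 1.19, the *Plac1* probe the brightest and *Tpbpa*, *Cts7* and *Ctsq* not well above background. With spike-in scaling 2 were higher and 2 lower at E8.5. At E10.5, 0 of 2 differed and the sums were 0.54 and 0.441. With stage *Plac1* fell (−1.16 ± 0.16) and *Prl3b1* rose (1.72 ± 0.26, limma adjusted p = 0.000655 and 0.000981), while *Prl8a2*, dim on both E10.5 arrays, was at least 3.17-fold lower in WT and at least 8.95-fold lower in *Dyrk2*-/-.

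Heart genes differed in 0 of 8 at both stages, with sums of 230.6 and 239.0 at E8.5, then 127.5 and 128.9 at E10.5 and the *Myh6* probe the brightest, although 3 were lower at E8.5 with spike-in scaling. With stage 1 of 8 rose, *Nppa* (3.41 ± 0.19, limma adjusted p = 2.86e-06), and 7 fell, *Nkx2-5*, *Myl7* and *Tnnt2* by the most (−2.10 ± 0.14, −1.30 ± 0.12 and −1.12 ± 0.12, limma adjusted p = 1.14e-05, 4.78e-05 and 0.000116). Between the *Dyrk2*-/- arrays 7 of 8 were 1.5-fold or more lower at E10.5, and 1 of 8 with spike-in scaling. Of the somite and presomitic mesoderm genes, *Pax1* was 1.53-fold higher at E8.5 (1 of 7), and *Tbx6* and *Pax1* were 3.16-fold and 1.57-fold lower at E10.5 (2 of 6). With spike-in scaling 0 were higher and 1 was lower at E8.5, and 1 was lower at E10.5. The list had sums of 22.3 and 26.3 at E8.5, then 16.4 and 14.9 at E10.5, with the *Meox1* probe the brightest and *Myf5* dim on every array. With stage *Pax1* and *Uncx* rose (2.34 ± 0.25 and 1.58 ± 0.23, limma adjusted p = 0.000152 and 0.000976), and *Tbx6* and *Meox1* fell (−4.23 ± 0.31 and −0.55 ± 0.13, limma adjusted p = 1.76e-05 and 0.00963). *Msgn1*, dim on both E10.5 arrays, was at least 5.69-fold lower in WT and at least 5.16-fold lower in *Dyrk2*-/-. The part of these tissues in the members' values was not tested.

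Genes with a profile most like a member's were sought over the 4 arrays among 14578 genes well above background on all 4, by the root mean square (RMS) difference of profiles centred on their own means. *Emx2* was closest to *Lhx2*, another homeobox gene of cortex and eye, at an RMS difference of 0.005 (log2), and then to *Asb4* at 0.029, and 52 genes lay within 0.1. *Lhx2* had levels of 1.90 and 1.87 at E8.5, then 3.62 and 3.45 at E10.5. *Hesx1* had no gene within 0.1, the nearest being *Lrrn4* at 0.235 and *3830417A13Rik* at 0.27. *Lrrn4* had levels of 0.78 and 0.45 at E8.5, then −2.20 and −1.52 at E10.5.

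*Fezf2* was closest to *Ppfia3* and *Jun*, at 0.039 and 0.049, with 57 genes within 0.1. *Rax* was closest to *Alg11* and *Hpn*, at 0.01 and 0.016, with 155 genes within 0.1. *Otx2*, read from its brightest probe with levels from 2.88 to 3.38, had *Cacul1* at 0.007, and 1923 genes lay within 0.1.

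Promoter sequences were at hand for 6 of the 8 members, 300 bases from 250 before to 50 after each start (RefSeq, GRCm38.p6), with no entry for *Otx1* and *Rax*. They were searched on both strands for TAATCC, the letters that Otx proteins prefer, and for TAATTA, a core bound by many homeodomain proteins, Emx and Rax among them. TAATCC occurred in 1 of 6 members, *Otx2*, and in 8.14% of 27025 genes, and TAATTA in 2 of 6, *Otx2* and *Emx2*, and in 6.12%. The motifs share their first letters, and neither set of letters occurred in the promoters of *Hesx1*, *Nr2e1*, *Emx1* or *Fezf2*. A match is a description of these windows only.

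In the *Otx2* promoter window that holds the matching probe, both motifs lie within 29 bases, in capitals here with GGATTA as the other strand of TAATCC (chr14:48665315-48665343 of GRCm38.p6, minus strand). In *Emx2* the match lies after the start (chr19:59458714-59458739 of GRCm38.p6, plus strand).
*Otx2*: TAATTAagggacgtgtgcccctcGGATTA
*Emx2*: tgatccccgcacTAATTAggctcatg
The *Hesx1* window had 33.7% G and C bases and those of *Emx1*, *Emx2*, *Fezf2* and *Nr2e1* had 74.0%, 64.3%, 61.3% and 58.0%. The 4 *Otx2* windows had 53.7%, 51.0%, 47.7% and 41.7%, against a median of 52.7% over all promoters.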

How the data were processed

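The authors deposited the scanner output of 4 arrays (Agilent Feature Extraction 10.7.1.1 per the file headers), and the processed intensity in it is on a linear scale, after background subtraction and detrending. They also deposited a table of intensities, which differed from quantile-normalized scanner values by a median of 0.00643 (log2). Spots flagged as outliers were left out, spots of a probe averaged on the log2 scale, and the 75th percentile of each array subtracted. Of 56605 probes 31370, 30226, 31818 and 31943 were well above background (E8.5 WT, E8.5 *Dyrk2*-/-, E10.5 WT, E10.5 *Dyrk2*-/-), and 0 spots were saturated. Over 300 probes printed more than once, the median SD between spots was 0.094, 0.118, 0.073 and 0.084 (log2).

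Each gene was read from the brightest of its probes, named through RefSeq (32993 probes by accession). Genes were compared if 1 or both arrays of a pair had that probe well above background, and called at 1.5-fold, the threshold the study states. A bound used the higher of the dim value and the lowest level well above background on that array (−4.82, −4.53, −4.72 and −4.77 in the order above). Spot errors are the modelled error over the signal on the log2 scale, added in quadrature for differences. The array annotation gives probe coordinates in mm9.

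limma 3.58.1 (lmFit, eBayes with intensity trend) was fitted to all 4 arrays with stage and genotype as terms, over the 32289 probes that 2 or more arrays had well above background. Its p-values were adjusted by the method of Benjamini and Hochberg. Software was Python 3.11.15 with pandas 2.3.3 and numpy 2.4.6, and R 4.3.3 with the package data.table (1.17.8).

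Members and gene lists were chosen with earlier results of these data known. Named genes are all members, up to 4 higher and 4 lower genes per list and stage between genotypes plus up to 2 bounds, up to 3 rises and 3 falls per list with stage, and up to 2 of the most alike genes per member. *Prl2c2* of the decidua and trophoblast list had no match. Alternatives were quantile normalization, no scaling, spike-in scaling, normexp background correction (offset 50), the deposited table, other filters on dim probes, a 2-fold threshold, a Z-score over 2, the mean over all probes and limma without the trend.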

Additional observations from a re-analysis of the deposited data

Results flagged for a closer look

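For 2 members the genotypes differed in opposite directions at the 2 stages, each by more than 1 error of the difference. *Hesx1* had a log2 ratio of *Dyrk2*-/- to WT of −0.49 at E8.5 and 1.22 at E10.5. *Nr2e1* had 2.59 at E8.5, measured against a WT array on which it was not well above background, and −0.30 at E10.5. *Hesx1* at E8.5 and *Nr2e1* at E10.5 differed by less than 1.5-fold, *Nr2e1* within 2 errors. With normexp background correction *Hesx1* had 0.55 at E10.5, under 1.5-fold, and *Nr2e1* had 0.79 at E8.5. With 1 array per group the difference between the stages was not tested for either gene.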

How the results depend on the processing

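The E8.5 count of changed members, 1 of 7 (all genes 1525 of 15789), was 2 without scaling (2551), 3 with spike-in scaling (7879) and 0 of 5 where both arrays had to be well above background (995 of 14997). The E10.5 count, 2 of 8 (1092 of 16122), was 0 with normexp background correction (253), 1 of 7 where both arrays had to be well above background (643 of 15468) and 1 at 2-fold (409). The stage counts, 6 of 7 in WT (6189 of 16455) and 7 of 8 in *Dyrk2*-/- (5095 of 16210), were 2 (1081) and 1 (1035) with a Z-score over 2 added. In *Dyrk2*-/- the count was 4 (3008) with normexp, where the log2 ratio of *Otx1* turned to −0.07. It was 6 (8766) with spike-in scaling, without *Rax*. The limma count for genotype, 0 of 7, was 1 without scaling and 1 without a filter on dim probes, in both cases *Nr2e1*. The log2 difference of *Nr2e1* was then 0.95 ± 0.21 and 1.15 ± 0.21, against 1.15 ± 0.51 in the main fit. The limma count for stage, 6 of 7, was 5 with spike-in scaling and 5 with the mean over probes, without *Rax*. It was 4 of 5 where all 4 arrays had to be well above background, and 7 of 8 without a filter on dim probes, *Otx2* passing (adjusted p = 0.0134). The mean over probes takes in the *Rax* probe that was dim on all 4 arrays. What else moved the counts was not tested.

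Of the members' log2 ratios under the alternatives, 195 stayed within 1 error of the difference, 38 moved by more and 1 called value changed sign. Some of the 195 could not move. The filters on dim probes leave the levels as they are, and so does the mean over probes for members with 1 probe. Values not called also changed sign, by more than 1 error in *Otx2* between the *Dyrk2*-/- arrays (−0.22 to 0.09 without scaling and 0.42 with spike-in scaling) and, with spike-in scaling at E8.5, in *Fezf2* (0.25 to −0.30) and *Emx1* (0.48 to −0.06). Of the limma differences, 117 kept their side of the threshold, 3 passed it only under the alternative and 2 no longer passed it. *Otx1*, *Emx1* and *Nr2e1* were dim on some arrays. Leaving out an array was not possible because each group has 1 array and the fit then has no residual degree of freedom. Through its stage term the limma fit compares the genotypes within each stage. No pairing of embryos was possible because each group has 1 array.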
